A study of Macaca fascicularis with 20 samples.

Results

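The miR-15/16 family was followed through the germinal layers and the cortical plate of the fetal visual cortex of the crab-eating macaque (Macaca fascicularis). Its members were taken by name from the deposited small RNA tables, where they are listed as mir-15a, mir-15b, mir-16, mir-195, mir-424, mir-497 and mir-503, with the 5p and the 3p arm of each hairpin. This gave 7 names and 14 arms, of 828 names and 1656 arms listed in both tables used. All 14 arms passed the filter on low counts, as did 1139 of the 1656 arms. The study cut 7 regions with a UV laser microscope, so that germinal layers could be compared with the cortical plate and area 17 with area 18. They were the outer subventricular zone (OSVZ) as OSVZ_17int, OSVZ_17ext and OSVZ_18, the ventricular zone (VZ) as VZ_17 and VZ_18, and the cortical plate (CP) as CP_17 and CP_18. OSVZ_17int is the apical and OSVZ_17ext the basal end of the OSVZ of area 17. Each region had 1 library from embryonic day 80 (set 1, replicate 1) and 1 from embryonic day 79 (set 2, replicate 2), which makes 6 OSVZ, 4 VZ and 4 CP libraries, and the labels name no treatment and no genotype. The sources used here do not say whether all regions of a set were cut from 1 fetus. The p-values rest on the spread among these libraries, part of which may be technical.

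Radial glia divide in the VZ, which lines the ventricle. The OSVZ lies above it and is greatly expanded in primates, and the CP receives the young neurons. The members of the miR-15/16 family share a seed, the stretch near the 5′ end of a miRNA that pairs with messenger RNAs, and miR-503 carries a closely related one. In human cells the family is known for repressing D-type and E-type cyclins and CDK6, which slows the passage from G1 into S phase. It is also known for repressing CHEK1, WEE1 and the survival factor BCL2. The genes lie in clusters. In humans miR-15a sits beside a copy of miR-16 in the host gene DLEU2, miR-15b beside the other copy of miR-16 in SMC4, miR-195 beside miR-497, and miR-424 beside miR-503 on the X chromosome. Both loci of miR-16 give the same 5p arm, so the count of miR-16-5p cannot be split between them, and reads shared by near-identical members may have been split in a way that is not given in the sources used here. The 5p arm is the guide strand in this family, while the 3p arm is for most members the passenger strand.

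The 14 libraries held 3603478 to 9517217 counts each (median 6729539). Levels are in CPM, counts scaled to a common library size with TMM factors, given as mean ± SD, and differences are on the log2 scale with standard errors (SE). A difference was called at a p-value adjusted over all 1139 arms under 0.05 (edgeR quasi-likelihood F test, Benjamini-Hochberg). The labelled layers were checked on miRNAs known from other cell types. Neuronal miRNAs were 15 arms, among them those of miR-137 and miR-138. They summed to 2729 to 5758 CPM in OSVZ, 2945 to 4306 CPM in VZ and 16606 to 24649 CPM in CP. miRNAs of radial glia and progenitors (4 arms, of miR-9 and miR-92b) summed to 31224 to 86835 CPM in OSVZ, 52463 to 124151 CPM in VZ and 30727 to 126775 CPM in CP, so this list does not separate the layers. Both miR-92b arms in it were called higher in OSVZ and in VZ than in CP, and miR-92b-3p averaged 18921 CPM in OSVZ, 38829 CPM in VZ and 786 CPM in CP. The miR-9 arms of the list were not called in these comparisons. Mural and mesenchymal miRNAs (8 arms, among them miR-143 and miR-145) summed to 1418 to 4937 CPM in OSVZ, 969 to 1957 CPM in VZ and 733 to 1175 CPM in CP. Choroid plexus miRNAs (3 arms of miR-204 and miR-211) summed to 166 to 957 CPM in OSVZ, 209 to 1952 CPM in VZ and 4947 to 7253 CPM in CP. Myeloid and lymphoid ones (12 arms) summed to 8413 to 18586 CPM in OSVZ, 6439 to 9052 CPM in VZ and 16071 to 35390 CPM in CP. The oligodendrocyte lineage list had 4 arms, of miR-219 and miR-338. Its sums were 97.5 to 158 CPM in OSVZ, 115 to 318 CPM in VZ and 398 to 766 CPM in CP. In that list 1 arm was called higher and 2 lower in VZ than in CP, and 0 higher and 2 lower in OSVZ. Endothelial miR-126 (2 arms) summed to 1434 to 5289 CPM in OSVZ, 980 to 2795 CPM in VZ and 1547 to 4505 CPM in CP. Counted by arm, the myeloid and lymphoid list did not follow its sum. Its median difference against CP was 1.63 in VZ, with 2 arms called higher and 1 lower. In OSVZ it was 0.26, with 1 arm called higher and 0 lower. For the mural and mesenchymal list the median was -0.78 in VZ, with 1 higher and 1 lower. In OSVZ that list had 0.32, with 2 higher and 1 lower. All tested arms had medians of -0.22 in VZ and -0.20 in OSVZ. Of counts on all arms, 62.9% to 85.0% were on 5p arms in OSVZ, 62.9% to 81.1% in VZ and 84.7% to 88.8% in CP. The part of these measures in the differences between layers was not tested. Libraries of laser-cut tissue hold all cell types of a layer, so fewer cells of a type and less of a miRNA per cell cannot be told apart.

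The family was abundant in every layer. Its 5p arms together averaged 42729 ± 18995 CPM in OSVZ (n = 6), 31288 ± 19207 CPM in VZ (n = 4) and 27585 ± 4915 CPM in CP (n = 4). As a share of a library's counts they ran from 3.20% to 4.53% in OSVZ, from 1.83% to 4.27% in VZ and from 1.78% to 3.30% in CP, so that the ranges of the layers overlap. Among all tested arms miR-16-5p ranked 8 by mean level, miR-15b-5p 15, miR-195-5p 37, miR-15a-5p 54, miR-497-5p 95, miR-424-5p 165 and miR-503-5p 427. Mature miRNAs are of nearly equal length, so levels are set side by side without a length correction.

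2 members carried most of the family. Over all 14 libraries miR-16-5p made up 55.1% ± 8.10 of the family's 5p counts (SD, n = 14) and miR-15b-5p 31.8% ± 7.97. Next came miR-195-5p at 6.56% ± 1.93 and miR-15a-5p at 4.63% ± 1.17, then miR-497-5p at 1.47% ± 0.419. The X-linked pair was the smallest, with miR-424-5p at 0.384% ± 0.274 and miR-503-5p at 0.0278% ± 0.0348. This full order held in 8 of 14 libraries. The level of miR-16-5p was above that of miR-15b-5p in 13 of 14 libraries, with VZ_17 replicate 2 as the exception, and miR-15b-5p was above miR-195-5p in 14 of 14, by a factor of 2.29 to 8.73. The step from miR-195-5p to miR-15a-5p was the least steady, with miR-195-5p higher in 10 of 14 libraries and the 4 exceptions all in set 2. All libraries had more miR-15a-5p than miR-497-5p, 13 of 14 more miR-497-5p than miR-424-5p (VZ_18 replicate 1 had less), and all 14 more miR-424-5p than miR-503-5p.

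**Figure D1:**
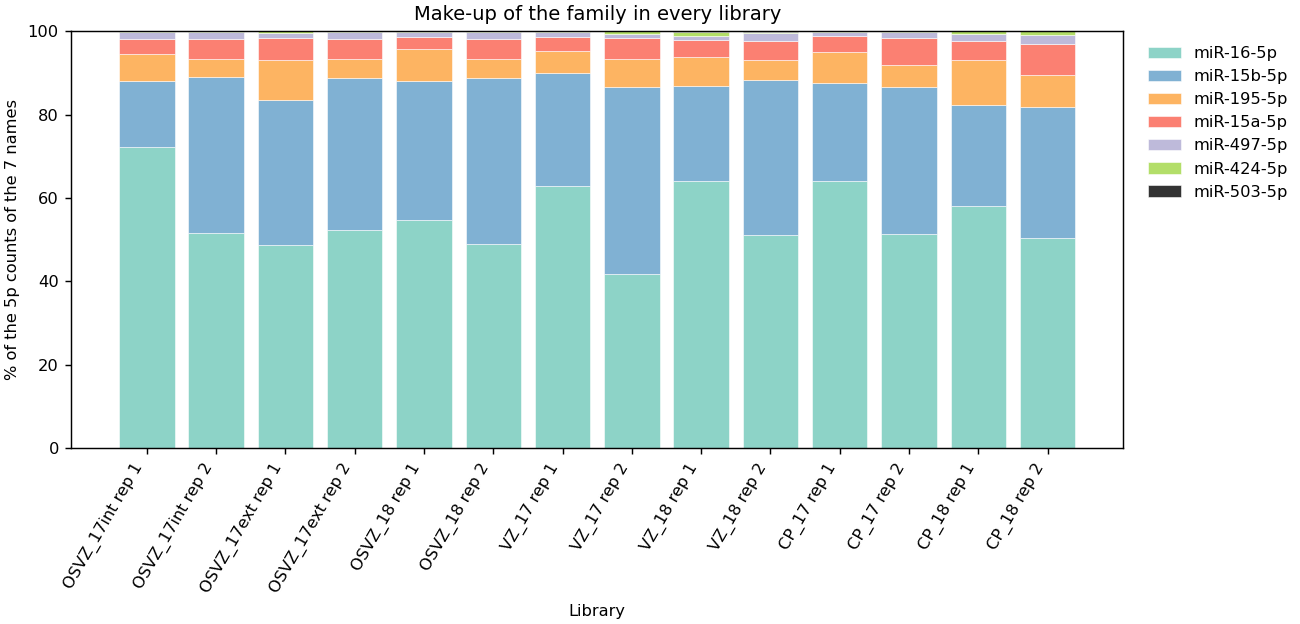
Make-up of the family in each of the 14 libraries, as the percentage (y axis) that each 5p arm takes of the summed 5p counts of the 7 names, with 1 stacked bar per library (x axis). In each bar miR-16-5p and miR-15b-5p fill most of the height, and miR-16-5p takes its highest share, 72.2%, in OSVZ_17int replicate 1.

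Values of each member in every library follow, replicate 1 before replicate 2 within a region. The most abundant member, miR-16-5p, had 53870.2 and 10921 CPM in OSVZ_17int, 23552 and 17091 CPM in OSVZ_17ext, 26821 and 14916 CPM in OSVZ_18, 36305 and 5258 CPM in VZ_17, 15083 and 15974 CPM in VZ_18, 21841 and 14637 CPM in CP_17, and 13548 and 12266 CPM in CP_18. Its germinal libraries spread on both sides of the CP ones, with the highest and the lowest value of the series in OSVZ_17int replicate 1 and VZ_17 replicate 2. The arm averaged 24529 ± 15492 CPM in OSVZ, 18155 ± 13038 CPM in VZ and 15573 ± 4290 CPM in CP.

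The level of miR-15b-5p, which is processed from the hairpin beside the SMC4 copy of miR-16, was 11897 and 7889 CPM in OSVZ_17int, 16846 and 11960 CPM in OSVZ_17ext, 16334 and 12208 CPM in OSVZ_18, 15626 and 5665 CPM in VZ_17, 5359 and 11687 CPM in VZ_18, 8084 and 10091 CPM in CP_17, and 5662 and 7690 CPM in CP_18. Of the 6 OSVZ libraries, OSVZ_17int replicate 2 alone lay within the range of CP. The layer means were 12856 ± 3312 CPM in OSVZ, 9584 ± 4971 CPM in VZ and 7882 ± 1815 CPM in CP.

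Its sister miR-15a-5p, from the DLEU2 cluster known for its loss in chronic lymphocytic leukaemia, had 2763 and 1040.4 CPM in OSVZ_17int, 2489 and 1499.7 CPM in OSVZ_17ext, 1444 and 1425 CPM in OSVZ_18, 1938 and 614 CPM in VZ_17, 946 and 1423 CPM in VZ_18, 1253 and 1802 CPM in CP_17, and 1089 and 1815 CPM in CP_18. The layers overlap throughout, with means of 1777 ± 683 CPM in OSVZ, 1230 ± 577 CPM in VZ and 1490 ± 374 CPM in CP.

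In the miR-195/497 cluster, miR-195-5p, known in the mouse heart for repressing CHEK1, had 4794 and 938 CPM in OSVZ_17int, 4680 and 1489 CPM in OSVZ_17ext, 3717 and 1398 CPM in OSVZ_18, 3056 and 843 CPM in VZ_17, 1679.5 and 1462 CPM in VZ_18, 2534 and 1504 CPM in CP_17, and 2472 and 1834 CPM in CP_18. In each of the 7 regions the library of set 1 was the higher. Its neighbour miR-497-5p had 1124 and 338 CPM in OSVZ_17int, 660.0 and 592 CPM in OSVZ_17ext, 539 and 497 CPM in OSVZ_18, 645 and 122 CPM in VZ_17, 218 and 633 CPM in VZ_18, 348 and 444 CPM in CP_17, and 393 and 568 CPM in CP_18. Here the set order was not shared by all regions, and OSVZ, VZ and CP overlap, at means of 625 ± 267, 405 ± 274 and 438 ± 94.9 CPM.

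Of the X-linked cluster, miR-424-5p, the counterpart of mouse miR-322, had 178 and 29.3 CPM in OSVZ_17int, 149 and 44.3 CPM in OSVZ_17ext, 127 and 87.8 CPM in OSVZ_18, 122 and 87.8 CPM in VZ_17, 242 and 104 CPM in VZ_18, 71.6 and 51.6 CPM in CP_17, and 134 and 188 CPM in CP_18. The highest value was in VZ_18 replicate 1 and the lowest in OSVZ_17int replicate 2. The lowest 5p arm, miR-503-5p, had 12 to 52 counts in an OSVZ library, 27 to 335 counts in a VZ library and 5 to 41 counts in a CP library. It averaged 4.31 ± 2.16 CPM in OSVZ, 15.6 ± 12.3 CPM in VZ and 4.86 ± 3.47 CPM in CP. Both VZ_18 libraries, at 31.2 and 19.7 CPM, lay above all others, and both VZ_17 libraries, at 5.81 and 5.82 CPM, within the range of OSVZ and CP.

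**Figure D2:**
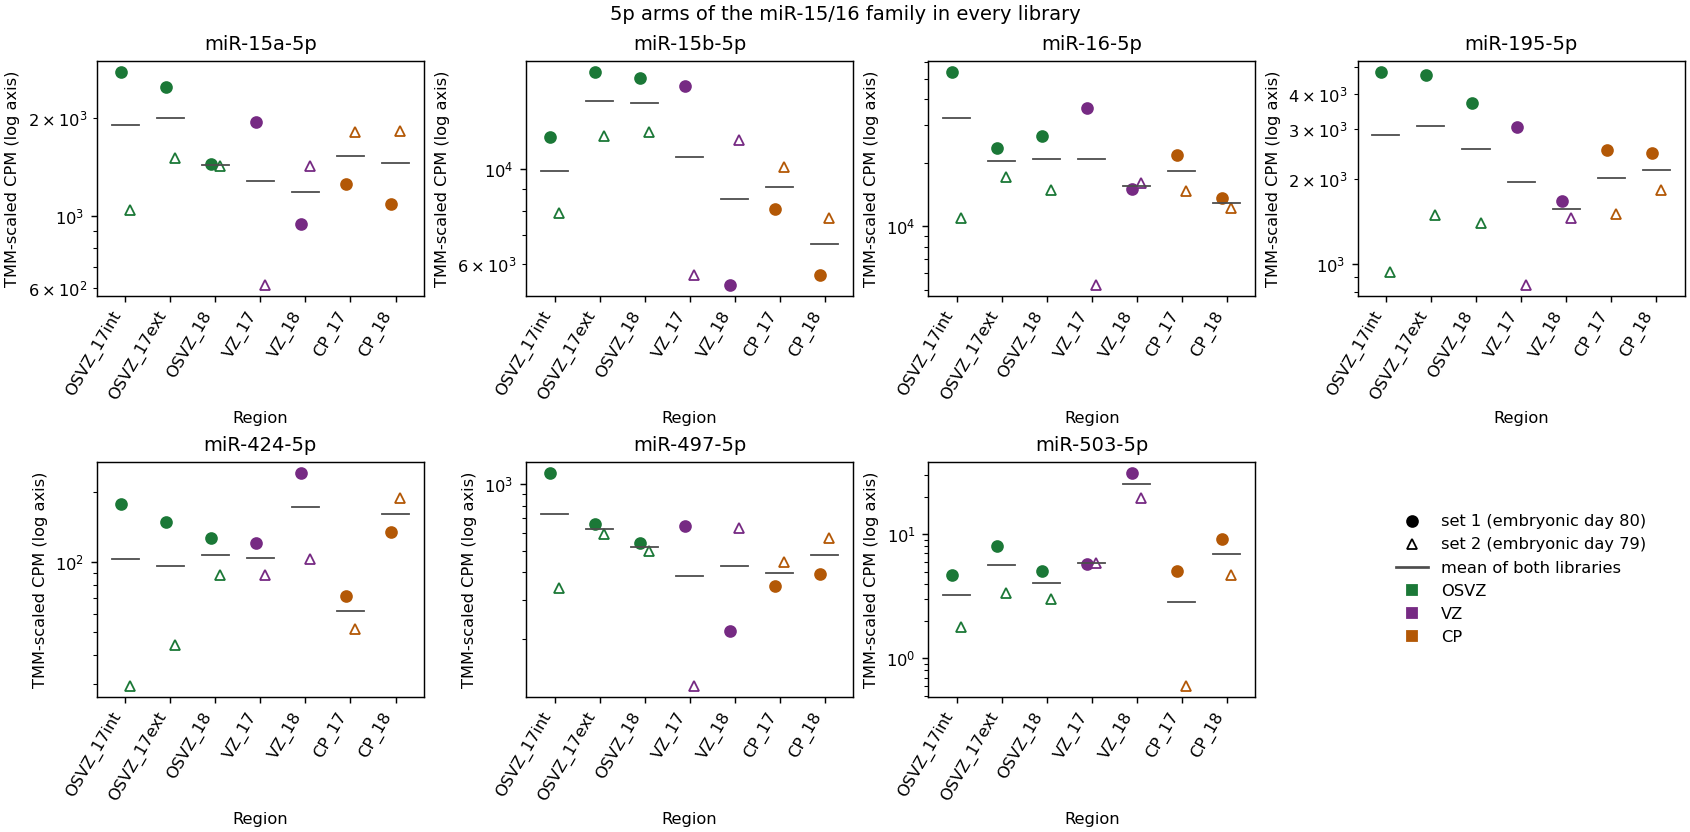
Level of each 5p arm (y axis, TMM-scaled CPM on a log axis) in the 2 libraries of each region (x axis), with filled circles for set 1, open triangles for set 2 and a line at their mean. For miR-195-5p the circle lies above the triangle in all 7 regions, and for miR-16-5p the libraries of OSVZ_17int, at 53870.2 and 10921 CPM, span the values of all regions but VZ_17.

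Among the 7 regions, 0 of 14 member arms were called in the joint test of any difference, against 5.18% of all tested arms (edgeR), and 0 had an unadjusted p under 0.05, against 15.4% of all arms. Among arms averaging 10 CPM or more, a class that holds 10 of the 14 members, 14.8% were called. The lowest adjusted p of a member was 0.453, for miR-16-3p. DESeq2 called 4 members in this test, namely miR-503-5p, miR-503-3p, miR-15a-3p and miR-16-3p, against 18% of the 852 arms to which it gave an adjusted p. Neighbours in the order of region means were not tested pair by pair beyond the comparisons given here. By mean, miR-16-5p was highest in OSVZ_17int at 32396 ± 30370 CPM and lowest in CP_18 at 12907 ± 906 CPM (SD, n = 2 each). For miR-15b-5p the highest mean was in OSVZ_17ext (14403 ± 3455 CPM) and the lowest in CP_18 (6676 ± 1434 CPM), and for miR-424-5p the highest was in VZ_18 (173 ± 97.9 CPM) and the lowest in CP_17 (61.6 ± 14.2 CPM).

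Comparing OSVZ with CP sets the basal germinal layer against the layer of young neurons. Here 0 of 14 member arms were called, while 6.32% of all tested arms were (edgeR), and 17.9% of those averaging 10 CPM or more. At an unadjusted p under 0.05 there were 4 members, miR-15a-3p, miR-15b-3p, miR-16-3p and miR-195-3p, a share of the 14 to be read against 15.5% of all arms. The guide arm miR-15b-5p differed by 0.72 ± 0.37 (95% interval -0.027 to 1.47, adjusted p = 0.354 by edgeR) and miR-16-5p by 0.48 ± 0.40 (-0.33 to 1.28, adjusted p = 0.68). The other guide arms were nearer to 0, with miR-497-5p at 0.40 ± 0.42, miR-195-5p at 0.18 ± 0.36, miR-15a-5p at 0.11 ± 0.38, miR-503-5p at 0.047 ± 1.0 and miR-424-5p at -0.14 ± 0.46. The interval of miR-15a-5p, -0.65 to 0.88, leaves room for a change of either sign.

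The member nearest to the threshold was miR-16-3p. It had 657 and 329 CPM in OSVZ_17int, 902 and 532 CPM in OSVZ_17ext, 835 and 465 CPM in OSVZ_18, 577 and 262 CPM in VZ_17, 622 and 438 CPM in VZ_18, 406 and 301 CPM in CP_17, and 276 and 228 CPM in CP_18. In OSVZ 5 of 6 libraries lay above every CP library, and OSVZ_17int replicate 2 lay within the CP range. The difference of OSVZ against CP was 1.0 ± 0.34 (0.31 to 1.69, adjusted p = 0.084 by edgeR), at 1.26 in set 1 and 0.75 in set 2. With DESeq2 size factors it was 1.16 and called (adjusted p = 0.0241), with scaling to library totals 1.24 and called (adjusted p = 0.0156), and among arms of at least 10 CPM alone it was called too (adjusted p = 0.00783). It was also called without VZ_17 replicate 1 (adjusted p = 0.0358), VZ_17 replicate 2 (adjusted p = 0.0244) or VZ_18 replicate 1 (adjusted p = 0.0351). These VZ libraries are in neither layer compared here and enter only through the shared fit. No run that left out 1 OSVZ or CP library called the arm, nor did the fit without the replicate block. Under all settings tried the adjusted p of miR-16-3p ran up to 0.352, reached without CP_18 replicate 1.

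The arm miR-15b-3p had 146, 86.5, 96.1, 154, 69.9 and 102 CPM in the OSVZ libraries, 71.2, 52.5, 93.2 and 53.9 CPM in the VZ libraries, and 61.7, 64.8, 45.8 and 39.7 CPM in the CP libraries, in the order of regions used above. Each OSVZ library lay above each CP library, which was so for 1 of 14 members and 2.72% of all tested arms. The reverse, each OSVZ library below each CP library, was seen for 0 of 14 members and 5.71% of all arms. The difference was 0.98 ± 0.47 (0.028 to 1.92, adjusted p = 0.299 by edgeR).

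The passenger arm miR-15a-3p had 13.2, 22.5, 22.3, 14.4, 22.1 and 8.23 CPM in the OSVZ libraries, 15.7, 4.20, 48.8 and 20.5 CPM in the VZ libraries, and 2.76, 0.357, 3.54 and 11.3 CPM in the CP libraries. CP_18 replicate 2 alone of the CP libraries reached into the range of OSVZ, and the VZ libraries spread most, with VZ_18 replicate 1 at the top. Its difference was 2.26 ± 0.94 for OSVZ against CP (adjusted p = 0.199 by edgeR) and 2.30 ± 0.99 for VZ against CP (adjusted p = 0.174). The arm miR-195-3p had 89.2, 3.84, 90.9, 21.3, 78.8 and 26.6 CPM in OSVZ, 52.5, 14.6, 120.5 and 34.4 CPM in VZ, and 30.8, 6.67, 19.0 and 14.2 CPM in CP. Its lowest value of all was in OSVZ_17int replicate 2, so that OSVZ surrounds the range of CP. The difference was 1.26 ± 0.62 for OSVZ against CP (adjusted p = 0.321 by edgeR) and 1.36 ± 0.65 for VZ against CP (adjusted p = 0.225). The rare miR-503-3p had 0 to 129 counts in an OSVZ library, 4 to 118 counts in a VZ library and 0 to 10 counts in a CP library, at 2.44 ± 1.36 for OSVZ against CP and 3.64 ± 1.45 for VZ against CP (adjusted p = 0.137 by edgeR, the lowest of a member in VZ against CP). The last passenger arm, miR-497-3p, averaged 9.89 CPM in OSVZ, 7.34 CPM in VZ and 6.4 CPM in CP, at 0.043 ± 1.48 for OSVZ against CP and -0.49 ± 1.42 for VZ against CP. In OSVZ against CP DESeq2 called 5 members, miR-15a-3p, miR-15b-3p, miR-16-3p, miR-195-3p and miR-503-3p, all 3p arms, against 18.5% of the 697 arms to which it gave an adjusted p.

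Comparing VZ with CP sets the layer where radial glia divide against that of young neurons, with the same 4 CP libraries as above. Again 0 of 14 members were called, while 7.37% of all tested arms were (edgeR) and 20.1% of those averaging 10 CPM or more. At an unadjusted p under 0.05 there were 3 members, miR-15a-3p, miR-195-3p and miR-503-3p, against 21.3% of all arms. The abundant guide arms were close to 0, with miR-16-5p at 0.093 ± 0.42 (-0.76 to 0.95), miR-15b-5p at 0.28 ± 0.39 (-0.51 to 1.06), miR-15a-5p at -0.33 ± 0.40 (-1.14 to 0.49), miR-195-5p at -0.34 ± 0.38 (-1.10 to 0.43) and miR-497-5p at -0.14 ± 0.45 (-1.05 to 0.76). Each interval includes 0. The X-linked arms were at 0.30 ± 0.49 for miR-424-5p and 1.73 ± 1.15 for miR-503-5p (-0.62 to 4.07, adjusted p = 0.393 by edgeR), and DESeq2 called miR-503-5p along with miR-15a-3p, miR-16-3p, miR-195-3p and miR-503-3p, 5 members against 21.3% of the 808 arms to which it gave an adjusted p.

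Scaling places the middle of all arms differently and so shifts these values together. In OSVZ against CP the 7 guide arms had a median of 0.18 under TMM, 0.34 under DESeq2 size factors and 0.41 under library totals, where all tested arms had -0.20, -0.045 and 0.035. In VZ against CP the guide arms had 0.093, 0.37 and 0.49, where all arms had -0.22, 0.023 and 0.21. The 3p arms of the family lay higher, with a median over the 7 of them of 1.0, 1.16 and 1.24 in OSVZ against CP, where all 3p arms had -0.21, -0.070 and 0.0035. In VZ against CP the family's 3p arms had 1.36, 1.62 and 1.86, where all 3p arms had -0.022, 0.22 and 0.46. These medians are descriptions, without a test.

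**Figure D3:**
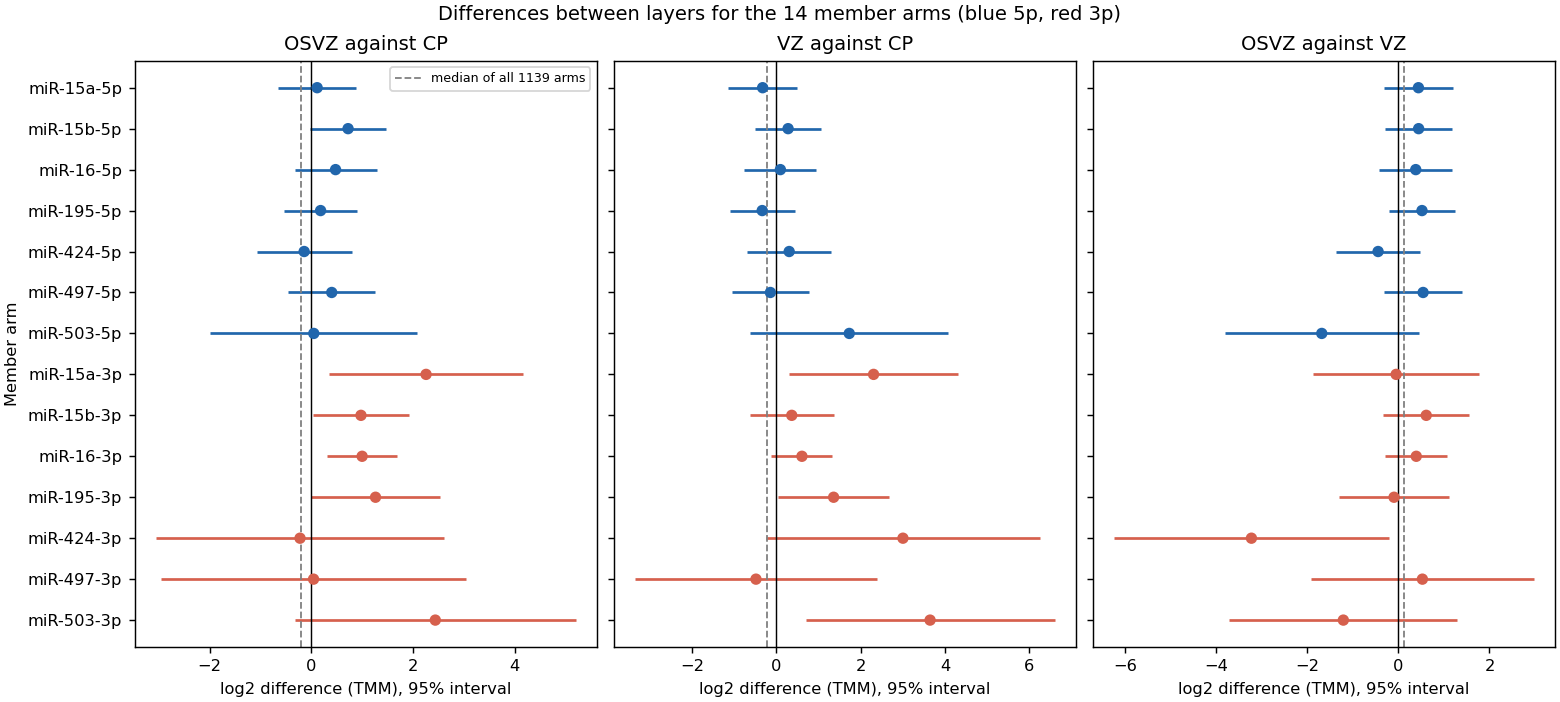
Log2 difference (x axis, TMM scaling) of each of the 14 member arms (y axis) between layers, with 95% intervals, 5p arms in blue and 3p arms in red. The dashed line marks the median of all tested arms (-0.20 in the left panel, -0.22 in the middle, 0.12 in the right), and the intervals of both miR-503 arms, miR-424-3p and miR-497-3p are the widest.

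Between the germinal layers, OSVZ against VZ, 0 of 14 members were called, against 0.0878% of all tested arms (edgeR, 1 arm) and 0.264% of those averaging 10 CPM or more. DESeq2 called 0 members as well, against 2.68% of the 1006 arms to which it gave an adjusted p. The abundant guide arms had positive differences of similar size, 0.44 ± 0.37 for miR-15a-5p, 0.45 ± 0.36 for miR-15b-5p, 0.38 ± 0.39 for miR-16-5p, 0.52 ± 0.36 for miR-195-5p and 0.54 ± 0.42 for miR-497-5p, with intervals that include 0. The X-linked guide arms had negative ones, -0.44 ± 0.45 for miR-424-5p and -1.68 ± 1.05 for miR-503-5p. For miR-497-5p the value was 1.53 and called without VZ_17 replicate 1 (adjusted p = 0.0471 by edgeR), and the range without each of the other libraries held no called value. The member with an unadjusted p under 0.05, against 9.92% of all arms, was miR-424-3p, at -3.22 ± 1.49 (adjusted p = 0.477 by edgeR). It is a rare arm with 0 to 12 counts in an OSVZ library, 15 to 105 counts in a VZ library and 1 to 7 counts in a CP library. All OSVZ libraries lay below all VZ libraries in CPM, which was so for 1 of 14 members and 0.878% of all tested arms, and all VZ libraries lay above all CP libraries, again for 1 of 14 members and for 3.07% of all arms. Of all arms, 1.23% had every OSVZ library above every VZ library and 10.1% had every VZ library below every CP library, and 0 of 14 members did either.

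The 3p arm took a small part of each hairpin's counts except for miR-503. Its share, of the counts of both arms, had a median of 3.02% in OSVZ, 3.31% in VZ and 1.91% in CP for miR-16, and stayed between 0.426% and 1.71% in all 14 libraries for miR-15b. For miR-503 the share varied widely, from 0% to 77% in OSVZ, from 2.86% to 67.1% in VZ and from 0% to 31.3% in CP. Counts of miR-503 are low, with 16 counts of both arms in OSVZ_18 replicate 2, where a 3p share of 0% has an exact (Clopper-Pearson) 95% upper bound of 20.6%. Such bounds cover counting error only.

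For 3 of the 7 names the 3p share was higher in every VZ library than in every CP library. It was so for 3.16% of the 412 names with both arms tested, and the reverse for 0 of 7 and for 5.1%. The share for miR-15a was 0.804%, 0.679%, 4.91% and 1.42% in VZ and 0.220%, 0.0198%, 0.324% and 0.619% in CP. For miR-195 it was 1.69%, 1.70%, 6.69% and 2.30% in VZ and 1.20%, 0.441%, 0.765% and 0.769% in CP. For miR-424 it was 4.72%, 5.39%, 3.88% and 2.06% in VZ and 0.639%, 1.59%, 0.980% and 0.0674% in CP. In OSVZ the range was 0.474% to 2.11% for miR-15a, 0.408% to 2.08% for miR-195 and 0% to 4.20% for miR-424, each overlapping with VZ and with CP. In this measure 0 of 7 names had OSVZ apart from CP, where 1.46% of all names were higher and 1.7% lower in every library, and 0 of 7 had OSVZ apart from VZ, where 0.728% were higher and 0% lower.

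The balance of the arms, the log2 ratio of 3p to 5p counts with a pseudocount of 0.5, was then tested across the 412 names with limma. In VZ against CP its difference was 2.97 ± 0.98 for miR-15a (adjusted p = 0.305 by limma) and 1.82 ± 0.77 for miR-195 (adjusted p = 0.394), the 2 members with an unadjusted p under 0.05, against 12.1% of all names. The value was 2.68 ± 1.47 for miR-424, 1.5 ± 1.06 for miR-503 and 0.66 ± 0.79 for miR-16. It was above 0 for 6 of 7 members and 57.5% of all names. The same held for 5 of 7 members and 50.5% of all names in OSVZ against CP, and for 2 of 7 members and 42% of all names in OSVZ against VZ. In OSVZ against CP miR-15a had 2.39 ± 0.92 (adjusted p = 0.606) and was the 1 member with an unadjusted p under 0.05, against 7.28% of all names. In OSVZ against VZ miR-424 had -3.14 ± 1.38 (adjusted p = 0.736), with 6.55% of all names below an unadjusted p of 0.05. In each of the 3 comparisons 0 of 412 names were called, members included. The highest 3p shares of miR-15a and miR-195 in VZ were in VZ_18 replicate 1. In this library miRNAs of red cells (4 arms of miR-144, miR-451 and miR-486) summed to 327 CPM, against 55.9 to 127 CPM in the other VZ libraries, and 62.9% of counts were on 5p arms, against 69.8% to 81.1%. The share of counts on 5p arms over all miRNAs was also lower in every VZ library, at 62.9% to 81.1%, than in every CP library, at 84.7% to 88.8%. The part of these measures in the result was not tested.

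**Figure D4:**
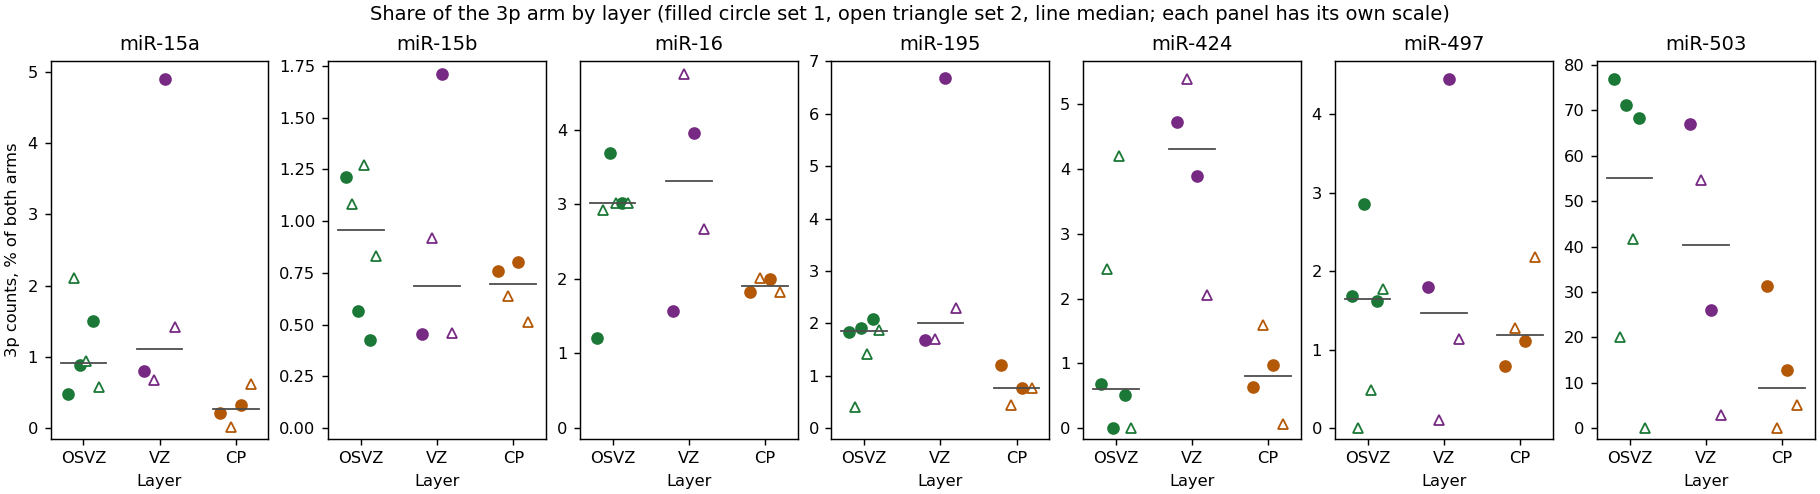
Share of the 3p arm in the counts of both arms (y axis, %, own scale in each panel) for the 7 names, by layer (x axis), with filled circles for set 1, open triangles for set 2 and a line at the layer's median. For miR-15a, miR-195 and miR-424 all 4 VZ libraries lie above all 4 CP libraries.

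Ratios between guide arms of 1 library do not depend on scaling. They were compared for 6 pairs of members and 3 layer comparisons, 18 tests in all, with an exact two-sided permutation test over libraries that does not use the set block. The ratio of miR-15a-5p to miR-15b-5p, 2 arms from different clusters, averaged -2.90 ± 0.46 on the log2 scale in OSVZ (n = 6), -2.94 ± 0.30 in VZ (n = 4) and -2.41 ± 0.25 in CP (n = 4). VZ against CP differed by -0.53 (exact p = 0.0571, adjusted p = 0.543), at -0.22 in set 1 and -0.84 in set 2. OSVZ against CP differed by -0.49 (exact p = 0.0905, adjusted p = 0.543), at -0.25 in set 1 and -0.72 in set 2. The ratio of miR-424-5p to miR-503-5p, arms of the same cluster, averaged 4.43 ± 0.58 in OSVZ, 3.40 ± 0.89 in VZ and 4.82 ± 1.21 in CP, and OSVZ against VZ differed by 1.03 (exact p = 0.0619, adjusted p = 0.543), at 1.03 in set 1 and 1.02 in set 2. The ratio of miR-195-5p to miR-497-5p, also of the same cluster, averaged 2.0 ± 0.68 in OSVZ, 2.30 ± 0.79 in VZ and 2.24 ± 0.60 in CP. The ratio of miR-15b-5p to miR-16-5p averaged -0.78 ± 0.70, -0.76 ± 0.73 and -0.98 ± 0.44 in these layers. None of the 18 differences passed at an adjusted p under 0.05. The smallest p that the libraries allow is 0.0286 with 4 against 4 and 0.00476 with 6 against 4. After adjustment over 18 tests a single difference at either value could not pass. The lack of a passing ratio therefore says nothing about a single pair.

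Area 17, the primary visual cortex, becomes denser in neurons than its neighbour area 18. Here 0 of 14 members were called in area 17 against area 18 averaged over layers, against 0.0878% of all tested arms (edgeR) and 0.264% of those averaging 10 CPM or more. DESeq2 called 0 members too, against 2.5% of the 719 arms to which it gave an adjusted p. The member with an unadjusted p under 0.05, against 8.69% of all arms, was miR-424-5p, at -0.82 ± 0.38 (-1.60 to -0.050, adjusted p = 0.538 by edgeR). In CP it had 71.6 and 51.6 CPM in area 17 and 134 and 188 CPM in area 18, a difference of -1.54 ± 0.70 (unadjusted p = 0.036, adjusted p = 0.994). In CP 0 of 14 members and 0% of all arms were called, with 3.16% of all arms below an unadjusted p of 0.05. Within VZ 0 members were called and 0 had an unadjusted p under 0.05, where 0.176% of all arms and 0.528% of those averaging 10 CPM or more were called and 7.9% had such a p. Within OSVZ both counts were 0 too, where 0% of all arms were called and 2.55% had such a p, and miR-424-5p was at -0.61 ± 0.69 in VZ and -0.33 ± 0.60 in OSVZ. The test of whether the area difference itself differs between 2 layers called 0 members for VZ against CP, OSVZ against CP and OSVZ against VZ, where 0.0878%, 0% and 0% of all arms were called (edgeR). At an unadjusted p under 0.05 there were 0 members, against 5.79%, 2.99% and 5.62% of all arms, and the lowest adjusted p of a member was 0.916. The abundant arms gave 0.22 ± 0.33 for miR-16-5p and 0.15 ± 0.31 for miR-15b-5p over layers. The median of the 7 guide arms was -0.024 under TMM, 0.041 under DESeq2 size factors and -0.22 under library totals. All tested arms had -0.23, -0.19 and -0.46. The sign of the guide arm median thus depends on scaling, while it lay above that of all arms under each.

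Within the OSVZ of area 17, apical OSVZ_17int against basal OSVZ_17ext, 0 of 14 members and 0% of all tested arms were called, and 0 members had an unadjusted p under 0.05, against 4.04% of all arms (edgeR). DESeq2 called 0 members, against 0.176% of all arms. With 2 libraries on each side the intervals are wide, -0.82 to 1.62 around 0.40 for miR-16-5p and -1.65 to 0.57 around -0.54 for miR-15b-5p. For miR-16-5p the 2 sets disagree in sign, at 1.19 in set 1 and -0.65 in set 2.

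Relatives of the family by seed, by position and by function were counted beside it. Of the seed relatives miR-103, miR-103a, miR-103b, miR-107, miR-646 and miR-322, 3 of 6 names were in both tables and 5 arms tested, and 0 were called in the 3 layer comparisons, in OSVZ_17int against OSVZ_17ext or in area 17 against area 18. The list was drawn up by name. The count of 0 leaves out miR-107-3p, which was not among the tested arms. In miR-107 the related seed lies in this 3p arm, so the count says nothing about it. Its 5p arm, miR-107-5p, named by its p in VZ against CP, averaged 12.1 ± 5.25 CPM in OSVZ, 7.68 ± 10.3 CPM in VZ and 26.6 ± 13 CPM in CP, a difference of -1.15 ± 0.94 for OSVZ against CP and -2.34 ± 1.06 for VZ against CP (adjusted p = 0.2 by edgeR). miR-542, miR-450a and miR-450b, which follow miR-424 and miR-503 on the human X chromosome, had 6 tested arms, and 0 were called in the same 5 comparisons. Their median difference in VZ against CP was 1.10, where that of all arms was -0.22. Only miR-542-5p of them averaged 10 CPM or more, so this median rests mostly on rare arms. The arm miR-542-5p averaged 8.67 ± 9.96 CPM in OSVZ, 24.7 ± 23.5 CPM in VZ and 9.74 ± 9.68 CPM in CP. In VZ the 5p arms of the cluster, miR-424-5p, miR-503-5p, miR-542-5p, miR-450a-5p and miR-450b-5p, had their highest value in VZ_18 replicate 1, at 242, 31.2, 51.6, 29.3 and 8.29 CPM, as did miR-450b-3p at 7.17 CPM. This library also held the highest sum of red cell miRNAs. The other neighbouring 3p arms peaked elsewhere, miR-542-3p in VZ_17 replicate 2 at 27.3 CPM and miR-450a-3p in VZ_18 replicate 2 at 3.92 CPM. In OSVZ miR-542-5p, miR-450a-5p and miR-450b-5p were highest in OSVZ_17int replicate 2, at 27.5, 6.21 and 11.4 CPM. In that library miR-424-5p, at 29.3 CPM, and miR-503-5p, at 1.77 CPM, had their lowest OSVZ values. In CP miR-424-5p, miR-542-5p and miR-450a-5p were highest in CP_18 replicate 2, and miR-503-5p and miR-450b-5p in CP_18 replicate 1.

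Some arms of other miRNAs with a known hand in the cell cycle were called between layers. Of 49 tested arms of this list (miR-17 relatives, miR-34 and miR-449, miR-24, miR-26, miR-221 and miR-222, miR-92b, let-7 and miR-98), 4 were higher and 3 lower in OSVZ than in CP, and 5 were higher and 4 lower in VZ than in CP (edgeR). These are 14.3% and 18.4% of the list, beside 6.32% and 7.37% of all tested arms. Among arms averaging 10 CPM or more they are 17.1% and 22.0% of 41 list arms, near the 17.9% and 20.1% of all such arms, and no difference between the list and the family was tested. The median of the list was 0.32 in OSVZ against CP and 0.35 in VZ against CP, beside -0.20 and -0.22 over all arms. The arm miR-222-3p, which represses CDKN1B, a brake on the cell cycle, averaged 5904 ± 3429 CPM in OSVZ, 6903 ± 5515 CPM in VZ and 816 ± 536 CPM in CP, and was higher by 2.85 ± 0.43 in OSVZ than in CP (adjusted p = 1.31e-05) and by 3.12 ± 0.44 in VZ than in CP (adjusted p = 3.3e-06). The arm let-7i-5p, of a family that rises with differentiation, was at 304 ± 210 CPM in OSVZ, 215 ± 149 CPM in VZ and 1172 ± 557 CPM in CP, a difference of -1.85 ± 0.44 for OSVZ against CP (adjusted p = 0.00447) and of -2.53 ± 0.48 for VZ against CP (adjusted p = 0.000338). Called let-7 arms were of both signs in VZ against CP, with let-7b-5p and let-7c-5p higher and 3 lower, let-7f-5p and let-7g-5p beside let-7i-5p. 0 arms of the list were called in OSVZ against VZ.

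Members were called between the 2 sets, a comparison added after the values were seen. A set stands for an embryonic day and for everything else its libraries share, which cannot be told apart. In set 1 against set 2, averaged over regions, 3 of 14 members were called, against 5.09% of all tested arms (edgeR) and 10.6% of those averaging 10 CPM or more. The arm miR-195-5p had 1679.5 to 4794 CPM in set 1 with a median of 3056, and 843 to 1834 CPM in set 2 with a median of 1462, and was higher in set 1 in 7 of 7 regions, by 1.24 ± 0.30 (adjusted p = 0.007). The arm miR-195-3p had 19.0 to 120.5 CPM in set 1 and 3.84 to 34.4 CPM in set 2 and was higher by 2.02 ± 0.52 (adjusted p = 0.0129), again in 7 of 7 regions. The rare miR-503-3p, at 1.33 to 19.8 CPM in set 1 and 0 to 7.04 CPM in set 2, was higher by 3.96 ± 1.21 (adjusted p = 0.0466). That call was lost with DESeq2 size factors (adjusted p = 0.0529) and, of the 14 fits that left out 1 library, it held only in those without VZ_17 replicate 1, VZ_17 replicate 2, VZ_18 replicate 1 or CP_18 replicate 2. The value for miR-16-5p was 0.97 ± 0.34 (adjusted p = 0.0839), with 6 of 7 regions higher in set 1, whereas miR-15a-5p, miR-15b-5p and miR-497-5p were higher in 4 of 7. These calls depend on scaling. With library totals 0 members were called, miR-195-5p was at 0.43 ± 0.23, the median of all arms was -0.81, and 4 of 7 guide arms were positive against 7 of 7 under TMM, where the median of all arms was -0.018. TMM factors ran from 0.567 to 1.32 in set 1 and from 1.04 to 1.51 in set 2. Without OSVZ_17int replicate 1, and likewise without OSVZ_17int replicate 2, 0 members were called. The endothelial miRNA miR-126 (both arms, neither at 0 in a library) summed to 2206 to 5289 CPM in set 1 and 980 to 2877 CPM in set 2, higher in set 1 in 7 of 7 regions. The share of counts on 5p arms was 62.9% to 88.8% in set 1 (median 69.8%) and 80.1% to 88.4% in set 2 (median 84.3%), higher in set 1 in 1 of 7 regions. The sums of neuronal miRNAs and of myeloid and lymphoid miRNAs were also higher in set 1 in every region. Those of radial glia and progenitor, mural and mesenchymal, choroid plexus and red cell miRNAs were not. The part of these sums and of the 5p share in the result was not tested. The test of whether a layer difference itself differs between the sets called 0 of 14 members and 0% of all arms for OSVZ against CP, VZ against CP and OSVZ against VZ (edgeR). At an unadjusted p under 0.05 were 4.83%, 5.79% and 6.94% of all arms in these tests and 1 member, miR-15a-5p in OSVZ against CP, at 1.38 (adjusted p = 0.971).

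Across the 14 libraries, with each set's mean taken out, the guide arms of 5 members were correlated. Pearson's r between miR-15a-5p, miR-15b-5p, miR-16-5p, miR-195-5p and miR-497-5p ran from 0.73 to 0.92, highest for miR-497-5p with miR-15a-5p. For miR-424-5p against these 5, r ran from -0.14 to 0.20. Among 369 other arms averaging 10 CPM or more, the one most like miR-16-5p was miR-221-5p (r = 0.97), the one most like miR-15a-5p was miR-301b-3p (0.93), and the one most like miR-15b-5p was miR-30a-3p (0.88). For miR-195-5p it was miR-30e-3p (0.86), for miR-497-5p miR-340-5p (0.90), for miR-424-5p miR-22-5p (0.77) and for miR-16-3p miR-339-5p (0.90). All arms of a library share its scaling factor and depth, and these values carry no p.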

How the data were processed

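The authors deposited raw read counts per miRNA name and arm, per the file headers, and libraries were made with a SOLiD total RNA kit after size selection, per the labels' protocols. The aligner, build and annotation are not given in the sources used here. Columns name a region and an arm. They were assigned to set 1 or set 2 by the spelling of regions and by the regions held. 12 further value columns, whose names fit none of the labels, were left out, and 6 labelled samples are not analysed here. The design written for 20 samples was fitted to 14 libraries in 2 sets. Tables list names with at least 10 counts. filterByExpr by region left 1139 arms with 99.99% of the counts. Counts were scaled with TMM and fitted with edgeR 4.0.16 (R 4.3.3) in 1 model of 7 regions with the set as a block (6 residual and 28.1 prior degrees of freedom). VZ and CP are means of both areas, and OSVZ is the mean of OSVZ_18 and of the mean of both area 17 parts. For the 379 arms of at least 10 CPM the biological coefficient of variation had a median of 59.7%. PCR reads that carry no molecular identifier cannot be counted as independent molecules.

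The block treats libraries of 1 set as related. Deviations from region means correlated between regions of a set with a median r of 0.261 (0.0153 to 0.501, 21 pairs, across arms, which are not independent), and 19 pairs were above 0.1. Arm balance was fitted with limma 3.58.1 and the same block. DESeq2 1.42.0, other scalings and filters, no block and leaving out libraries were alternatives. Members, lists and tests were chosen with earlier results of these data known. By rule, all 14 member arms are accounted for, those of at least 10 CPM with values per library or by layer, and up to 4 arms of each list with the smallest p in VZ against CP are named. miR-450a-5p, miR-450b-5p, let-7b-5p, let-7c-5p, let-7f-5p and let-7g-5p were named after their values were seen.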

Additional observations from a re-analysis of the deposited data

Results flagged for a closer look

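3 values stood far from the others of their layer, by the gap to the nearest library over the range of the layer's libraries (Dixon's 95% limit). 51 groups of 4 or 6 libraries were looked at, and chance puts about 1 in 20 groups past the limit. The level of miR-16-5p in OSVZ_17int replicate 1 was 53870.2 CPM, where the other 5 OSVZ libraries had 10921 to 26821 CPM. The 3p share of miR-16 was 1.20% in the same library, where the others had 2.93% to 3.69%. The 3p share of miR-195 was 6.69% in VZ_18 replicate 1, where the other 3 VZ libraries had 1.69% to 2.30%.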

How the results depend on the processing

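The edgeR counts of 0 members called were 0 under every alternative run for OSVZ_17int against OSVZ_17ext and for area 17 against area 18 over layers and in each layer. They were also 0 for the arm balance (another pseudocount, a minimum count, no replicate block and left-out libraries) and for the ratios of guide arms (left-out libraries). For these ratios a single difference could not have passed in any run. The exceptions were in the layer comparisons and the joint test. For OSVZ against CP 1 member, miR-16-3p, was called with DESeq2 size factors and among arms of at least 10 CPM, 2 with library totals (with miR-15b-5p) and 5 with the DESeq2 test. Leaving out libraries gave 0 to 3 members: 1, miR-16-3p, without VZ_17 replicate 1, VZ_17 replicate 2 or VZ_18 replicate 1, and 3 (with miR-15a-3p and miR-15b-5p) without both VZ_18 replicate 1 and VZ_17 replicate 2. For VZ against CP 1 member, miR-16-3p, was called among arms of at least 10 CPM and 5 with the DESeq2 test, and 0 in each run that left out libraries. For OSVZ against VZ leaving out libraries gave 0 to 1, and for any difference among regions the DESeq2 test called 4. In set 1 against set 2, 0 were called with library totals, and leaving out libraries gave 0 to 4. The cause was not tested. Without the replicate block 0 members were called in each comparison of regions, and 53 of all arms were called in VZ against CP, 49 in OSVZ against CP and 26 for any difference, against 84, 72 and 59 with it. DESeq2 called 172, 129 and 153 arms. Leaving out libraries moved these counts to 53 to 120, 44 to 125 and 45 to 125. Past 1.5 times were 53 in VZ against CP without CP_17 replicate 2, 44 in OSVZ against CP without OSVZ_18 replicate 2 or CP_17 replicate 1 and 125 without both VZ_18 replicate 1 and VZ_17 replicate 2, and, for any difference, 125 without VZ_17 replicate 1, 101 without VZ_17 replicate 2 and 98 without both VZ libraries named. Over all alternatives the count of all arms called was 0 to 27 in OSVZ against VZ (24 without VZ_17 replicate 1), 0 to 6 in OSVZ_17int against OSVZ_17ext, 0 to 24 in area 17 against area 18, 0 to 26 in VZ, 0 to 1 in OSVZ and 0 to 8 in CP, and 29 to 181 in set 1 against set 2, with the 24 and the 26 of the areas without VZ_17 replicate 1. For the 10 member arms averaging 10 CPM or more, 1680 log2 differences of the region comparisons were recomputed. The rarer member arms are not among them. Of these values 1580 stayed uncalled and moved by less than the SE of the main fit. Another 81 stayed uncalled and moved by at least the SE, 19 were called and 0 reversed. Of the uncalled values 176 had the other sign. Arms such as miR-424-3p and miR-503-3p, at 0 in 2 of 14 libraries each, are limited by depth.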
